A study of Mus musculus with 2 samples.

Results

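The clustered protocadherins are 57 protein-coding genes on mouse chromosome 18, taken by symbol as Pcdha, Pcdhb or Pcdhg followed by a number, a, b or c, of 21774 protein-coding genes in all. They comprise 14 alpha, 22 beta and 21 gamma genes. With them belong the 84 H3K9me3 peaks in a window of 1100 kb on GRCm38 (mm10), which begins 30.3 kb before the alpha genes and ends 158 kb after the gamma genes. They are 0.209% of the 40119 peaks in the deposited list. The mark H3K9me3, which is typical of silenced chromatin, was mapped by ChIP-seq in sorted intestinal stem cells with high GFP and low CD24. The ChIP library was set against 1 control library, labelled both as input and as IgG. The cells came from 12 mice of the genotype Lgr5-EGFP-IRES-creERT2;setdb1fl/fl, on the strain C57BL/6 at 8 weeks of age. The reporter and Cre are driven from Lgr5, a gene of cycling crypt stem cells, and the floxed gene encodes Setdb1, an H3K9 methyltransferase. No label says whether Cre had been activated. With 1 library of each kind there is no replicate, so no test was made and intervals cover counting error only.

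Clustered protocadherins are cell-surface adhesion proteins known mainly from neurons, where each cell switches on a few of them and so gains a surface identity. In the alpha and gamma families every gene has its own large variable first exon with its own promoter. That exon encodes the extracellular cadherin repeats, the membrane span and part of the tail, and is spliced to small constant exons that the whole family shares. Beta genes consist of a single variable exon and have no constant exons. All genes of the cluster are known to run in the same direction. In mouse neurons, CTCF and cohesin loop chosen promoters to distant enhancers, and Setdb1 is known to act on this cluster.

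The mark lay on the variable exons, gene after gene, and the shared constant segments held 1 peak. A peak touched the first 3 kb of 50 of the 57 genes (87.7%), a stretch used here to stand for the first exon because the annotation used gives gene spans without exons. The background was 26.5% of 17492 other protein-coding genes of known strand, none of them on chromosome 18. All 14 alpha genes, 19 of 22 beta genes and 17 of 21 gamma genes had such a peak. These counts rest on 59 separate peaks, and none of them touched the first exons of more than 1 gene. A wider rule, a peak in the whole span or within 5 kb, took 56 of 57 genes (98.2%) against 55.6% of all protein-coding genes. Because alpha and gamma spans share their far ends, that wider count rests on 70 separate peaks, and Pcdhb11 was the gene without one.

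**Figure D1:**
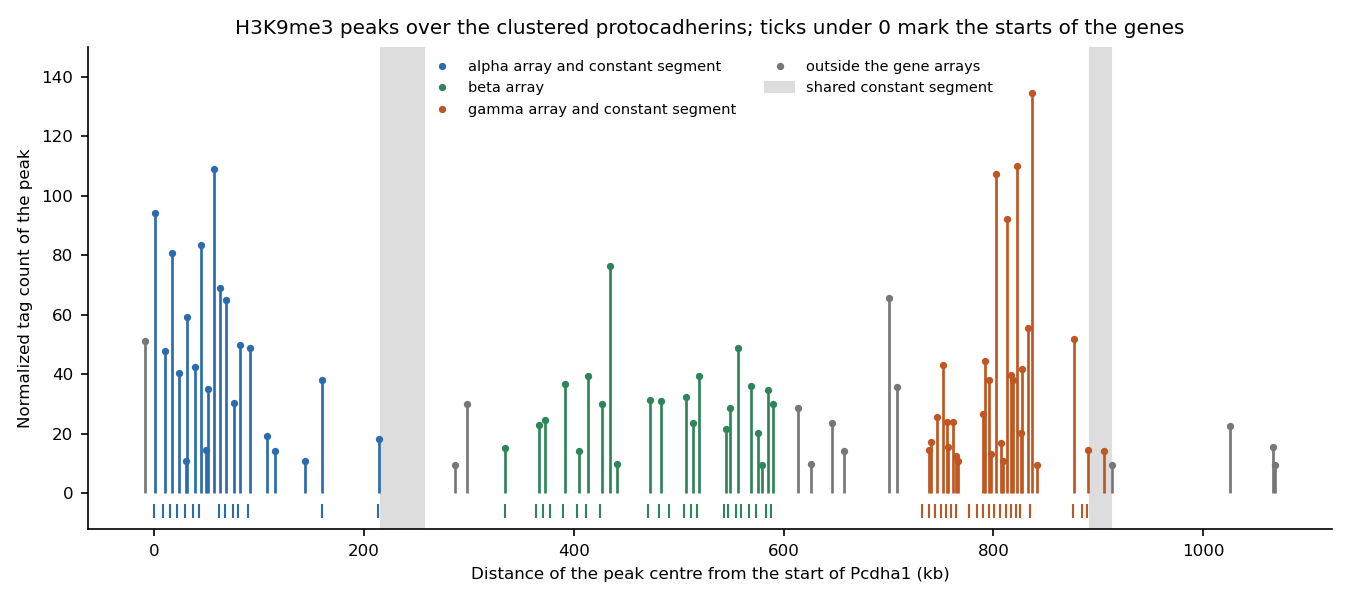
Normalized tag count of each of the 84 H3K9me3 peaks (vertical axis) by the distance of its centre from the start of Pcdha1 in kb (horizontal axis), coloured by stretch, with ticks below 0 at the starts of the 57 genes. Peaks crowd over the gene starts of all 3 arrays, the tallest reaches 134.6 in the gamma array, and the grey constant segments hold 0 peaks in alpha and 1 in gamma.

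Per kb of the gene cluster, tags in peaks were densest in gamma, then alpha, then beta. A tag is a sequenced fragment placed on the genome, and its number in each peak was recovered from the deposited normalized tag count. Gamma held 28 peaks and 5.66 tags per kb of the gene cluster (exact Poisson 95% interval 5.32 to 6.02), alpha 21 peaks and 3.64 tags per kb (3.41 to 3.88), and beta 22 peaks and 2.44 tags per kb (2.26 to 2.64). These intervals did not overlap. With only peaks of fold at least 8, gamma had 3.68 and alpha 3.60 tags per kb, which differ by less than their counting intervals, and beta 2.06. Peaks covered 32422 of 180096 bp in gamma, 31853 of 257373 bp in alpha and 22068 of 256422 bp in beta. Per covered kb the values were closer, at 31.5 tags in gamma, 29.4 in alpha and 28.4 in beta. Stretches below the caller's minimum height are not in the list.

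By fold over control, alpha came first and gamma last. Summed ChIP tags, scaled to the control library, were 17.6 times the control tags in alpha, 12.1 times in beta and 9.63 times in gamma. The control library held 2.24 tags per covered kb in gamma peaks (1.75 to 2.81), 1.61 in beta (1.12 to 2.23) and 1.15 in alpha (0.805 to 1.58). Control signal was higher in gamma than in alpha peaks beyond counting error, and no peak is listed with less than 0.5 control tag. First exons of neighbouring protocadherins resemble each other in sequence, and the sources used here do not say how tags with several matching places were handled. The part of this in the order of the families was not tested.

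Variable arrays carried nearly all of the signal of the alpha and gamma families. The alpha variable array, from the start of Pcdha1 to the end of the first-exon window of Pcdhac2, is 216 kb long and held 21 peaks with 937.0 tags (878 to 999). The alpha constant segment, the following 41.0 kb to the common end of the spans, held 0 peaks. The gamma variable array of 161 kb held 27 peaks with 1006.5 tags (945 to 1071), and the gamma constant segment of 19.3 kb held 1 peak with 13.5 tags (7.29 to 22.9). Per kb this is 4.33 tags (4.06 to 4.62) in the alpha variable array against 0 in its constant segment, and 6.26 tags (5.88 to 6.66) in the gamma variable array against 0.699 (0.377 to 1.18) in its constant segment. A stretch with 0 peaks held no place that passed the caller and may still hold tags below that limit. Without exon annotation, constant exons could not be told from the sequence around them. Peaks touching no first-exon window were also few in the variable arrays, 6 with 194.0 tags in alpha and 2 with 62.0 tags in gamma. First-exon windows made up 19.4% of the alpha array and 39.2% of the gamma array. So this contrast was not separated from that between first exons and all other sequence. The single gamma constant peak, 37835522 to 37836022, had a fold of 6.16 with 1.5 control tags. With only peaks of fold at least 8, the alpha variable array had 4.28 tags per kb and the gamma variable array 4.12.

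**Figure D2:**
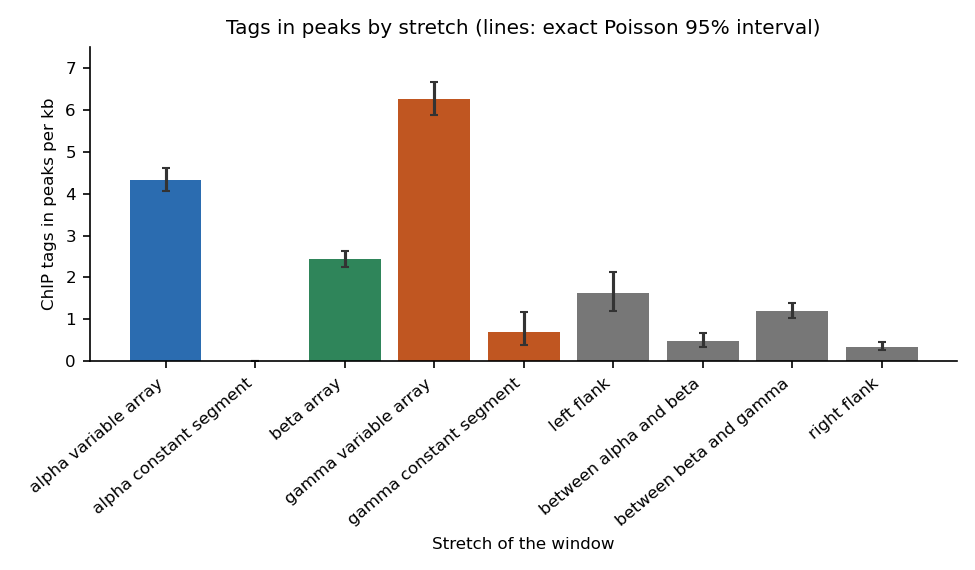
ChIP tags in peaks per kb (vertical axis) for each stretch of the window (horizontal axis), as bars with exact Poisson 95% intervals as lines. The gamma and alpha variable arrays stand highest at 6.26 and 4.33, the beta array follows at 2.44, and the alpha and gamma constant segments stand at 0 and 0.699.

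Within the arrays the peaks followed the first exons. First-exon windows made up 19.4% of the alpha array and the peaks touching them held 79.3% of its tags. They made up 25.7% of the beta array with 85.4% of its tags, and 39.2% of the gamma array with 93.8%. Per kb, the stretches that lead to the C-type genes and include them were thinly marked. From Pcdha12 to Pcdhac2, the end of the alpha array, there were 0.782 tags per kb (0.634 to 0.954), against 9.04 (8.44 to 9.68) from Pcdha1 through the first exon of Pcdha12. From Pcdhga12 to Pcdhgc5 there were 1.34 (1.05 to 1.69), against 8.74 (8.19 to 9.32) from Pcdhga1 through the first exon of Pcdhga12. The stretches with C-type genes hold fewer first exons per kb. Per gene the alpha medians were closer, at 27.0 tags for Pcdhac1 and Pcdhac2 against 54.75 for Pcdha1 to Pcdha12. In gamma they were 14.0 for Pcdhgc, 28.5 for Pcdhga and 78.0 for Pcdhgb genes.

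In each of the 3 families the position most often covered lay well inside the gene. At 2000 bp from the gene start, a peak covered 12 of 14 alpha genes (85.7%), 18 of 22 beta genes (81.8%) and 15 of 21 gamma genes (71.4%), against 3.25% of the other protein-coding genes of known strand. The C-type genes and Pcdhb1 were not covered there. At the start itself a peak covered 4 alpha, 1 beta and 8 gamma genes, against 12.4% of the other genes. Gamma genes were covered almost as often nearer the start as at 2000 bp, with 14 of 21 (66.7%) at 200 to 450 bp. The other genes were covered most often 250 to 300 bp after the start, at 14.1%. At 3000 bp a peak covered 1 of the 57 genes, a gamma gene, which is near the 2.84% of the other genes.

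**Figure D3:**
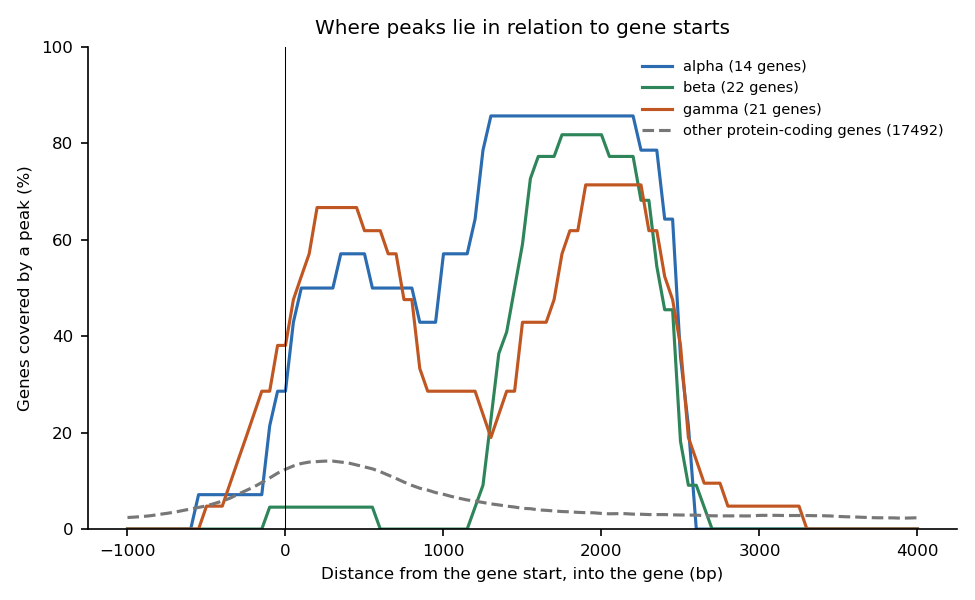
Share of genes covered by a peak, in percent (vertical axis), by distance from the gene start into the gene in bp (horizontal axis), for the 14 alpha, 22 beta and 21 gamma genes and for 17492 other protein-coding genes (dashed). All 3 families are highest near 2000 bp, at 85.7%, 81.8% and 71.4%, gamma and alpha have a further rise near 500 bp that beta lacks, and the other genes peak at 14.1% close to the start.

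Beta genes showed the most regular pattern. Each of the 18 marked genes among Pcdhb2 to Pcdhb22 had exactly 1 peak, and its centre lay 1737 to 2118 bp from the gene start, with a median of 1930.0 bp. None of these peaks covered the start or the position at 500 bp. Measured along the gene span, the centres lay at a median of 57.9% of its length (37.6 to 76.3%). Tags per gene ranged from 13.5 to 46.5 among them. Pcdhb17 held 46.5 tags (34.1 to 61.9) with 2.5 control tags, Pcdhb7 and Pcdhb14 held 37.5 tags each (26.5 to 51.6) with 3.0 control tags each, and Pcdhb5 held 35.0 tags (24.4 to 48.7) with 1.0. The intervals of these 4 genes overlap, so their order is not resolved at this depth.

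Pcdhb1 differed in place from the other beta genes. It lies apart at the left end of the array, and its peak ran from 112 bp before the start to 571 bp after it, with 14.5 tags (8.02 to 24.1). Pcdhb22, at the right end, had 28.5 tags, with 3.5 control tags, at 1343 to 2343 bp like its neighbours. Pcdhb4, Pcdhb11 and Pcdhb18 had no peak in their first 3 kb. The nearest peak to that stretch lay 4199 bp away at Pcdhb4, 7294 bp at Pcdhb11 and 1756 bp at Pcdhb18. No beta gene had a strong peak in its first 3 kb, strong meaning the top 10% of the whole list, at 50.8 normalized tags or more.

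Peaks of the alpha array were wider and taller than those of the beta array at the median, at 1362.0 bp and 42.4 normalized tags against 973.0 bp and 29.9. Strong peaks touched the first exons of 11 of the 57 genes (19.3%), 6 in alpha and 5 in gamma, against 1.51% of the other protein-coding genes of known strand. Pcdha1, the outermost alpha gene, held 90.0 tags (72.4 to 111) in a single peak at 36930162 to 36932752, which ran from 123 bp before the start to 2467 bp after it. Its fold of 61.58 rests on 1.0 control tag. Pcdha7 held 79.5 tags (63.0 to 99.0) with 5.5 control tags, Pcdha3 held 77.0 (60.8 to 96.2) with 1.0, and Pcdha5 held 67.0 (51.9 to 85.1) with 2.5.

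The strong alpha genes were mostly those with 1 long peak. In 5 alpha genes, Pcdha1, Pcdha3, Pcdha7, Pcdha8 and Pcdha9, a single peak covered the positions at 500 bp and at 2000 bp alike, and each of these 5 peaks was strong, at 62.0 to 90.0 tags. The sixth, Pcdha5, had a short peak at 29 to 529 bp and a longer one at 1174 to 2551 bp. In the other 6 genes of Pcdha1 to Pcdha12 the peak began about 1 kb in, at 972 to 1274 bp, and held 29.0 to 47.5 tags. Pcdha8 and Pcdha9 were named after their values were seen. A wider peak gathers more tags by its width alone, so the 2 measures are not separate.

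**Figure D4:**
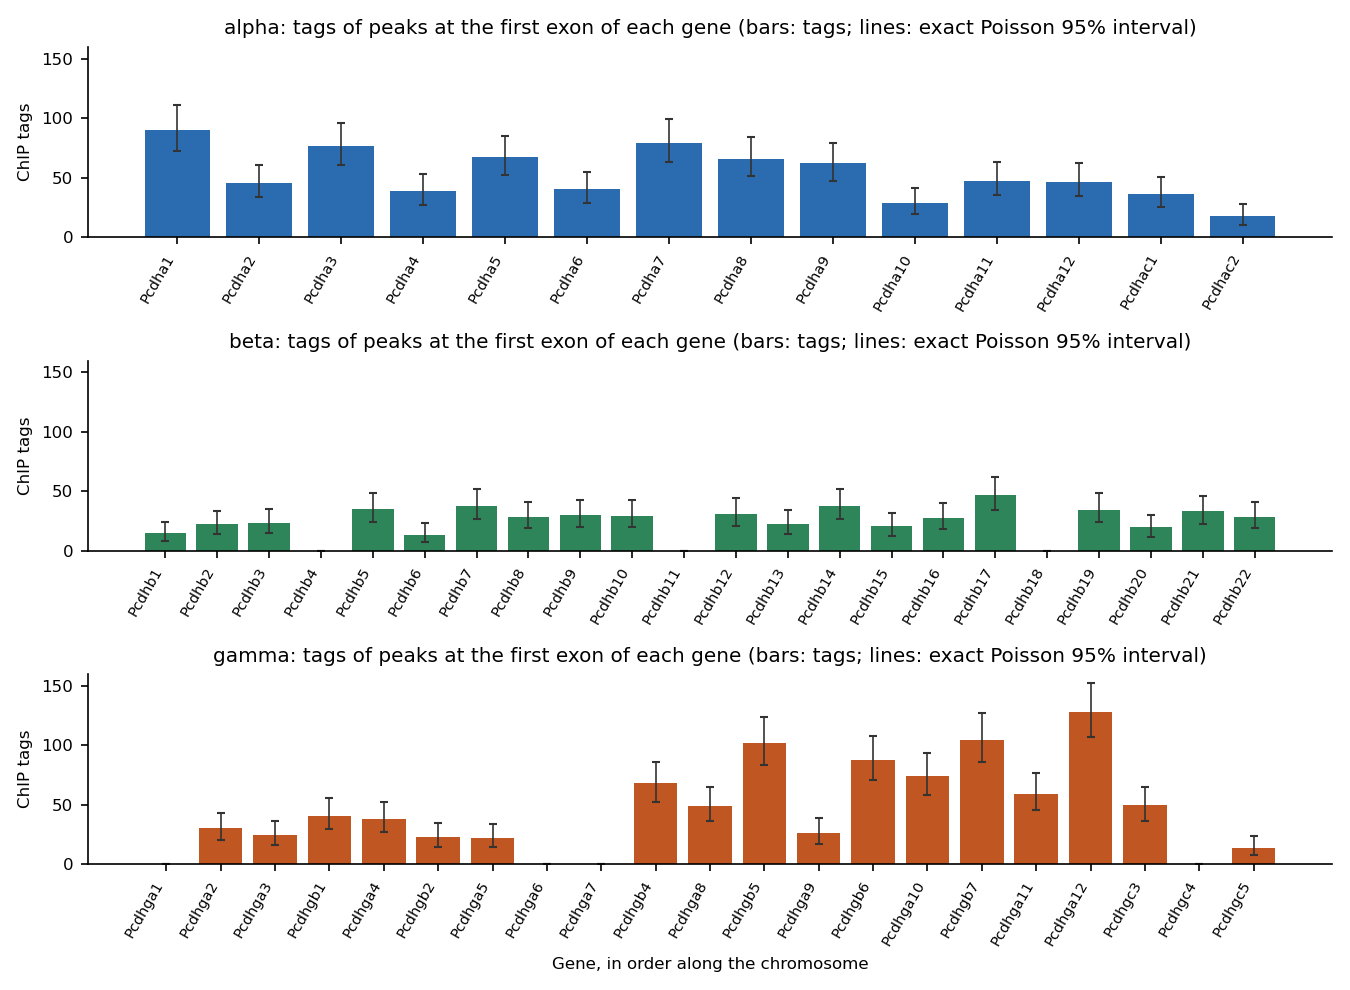
ChIP tags of the peaks touching the first 3 kb of each gene (vertical axis), for the alpha, beta and gamma genes in chromosome order (horizontal axis), with exact Poisson 95% intervals as lines. Alpha genes run from 17.5 to 90.0, beta genes from 0 to 46.5, and gamma genes from 0 to 128.5 with the tallest bars between Pcdhga7 and Pcdhga12.

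Gamma genes were uneven along their array. The array mixes A-type (Pcdhga) and B-type (Pcdhgb) genes and ends with the C-type genes. Pcdhga12, the last A-type gene, held the most of all 57 genes, at 128.5 tags (107 to 153) with 4.5 control tags in 1 peak at 37765732 to 37768850. Pcdhgb7 held 105.0 tags (85.9 to 127) with 5.0 control tags, Pcdhgb5 held 102.5 (83.6 to 124) with 8.0, and Pcdhgb6 held 88.0 (70.6 to 108) with 9.5. Counting intervals of these 4 gamma genes overlap, so their order is not resolved at this depth. In these 4 genes a single peak covered the positions at 500 bp and at 2000 bp alike. Of the 18 A-type and B-type genes in order, the first 9 had a median of 23.0 tags and the last 9 a median of 74.5 tags. Spearman's rho between order and tags was 0.71 over these 18 genes of 1 library, given as a description. It was 0.21 over the 22 beta genes and -0.32 over the 12 genes Pcdha1 to Pcdha12.

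B-type gamma genes held more than A-type genes at the median. The 6 Pcdhgb genes all had a peak, with a median of 78.0 tags and a range of 23.0 to 105.0. The 12 Pcdhga genes ranged from 0 to 128.5 with a median of 28.5, and the whole range of the B-type genes lies within it. Most B-type genes, Pcdhgb4 to Pcdhgb7, lie in the later part of the array, where tags were higher. Type and place in the array were not told apart. Tags were summed over whole peaks touching the first 3 kb of each gene, so parts of a peak outside that stretch count too. The peak of Pcdhgb7 began 339 bp before the start, and that of Pcdhga12 ran to 3270 bp after it. Pcdhga1, Pcdhga6 and Pcdhga7 had no peak in their first 3 kb, and the nearest lay 4216, 9905 and 2172 bp from it. Pcdhga6 and Pcdhga7 are neighbours and mark the step between the lower and the higher part of the array.

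Some gamma genes had 2 peaks in their first 3 kb with a gap between, which was the case in 8 of the 21. The upstream peak was centred 51 to 547 bp from the start (median 383.5). The downstream peak was centred 1939 to 2207 bp from it (median 2085.5). The gap between them was 603 to 1232 bp and may still hold tags below the caller's limit. Some of these peaks lay near the lowest count of the list, 9.0 tags, with 10.5 at Pcdhga5 and at Pcdhga9. Without exon annotation, the ends of the first exons are not known. The upstream peak held more tags in 5 of these genes and the downstream one in 3. Only at Pcdhga8 were the counting intervals of the 2 peaks apart, at 36.5 tags upstream (25.6 to 50.4) and 12.5 downstream (6.56 to 21.6). In the others the order of the 2 peaks is not resolved at this depth. Over all 21 gamma genes, 13 were covered at 500 bp, 6 at 1000 bp and 15 at 2000 bp, while no beta gene was covered at 1000 bp and 1 at 500 bp. Of the other protein-coding genes of known strand, 12.9% were covered at 500 bp, 7.22% at 1000 bp and 3.25% at 2000 bp.

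The C-type genes, which are known to be expressed more evenly between neurons than the others, were marked nearer their starts. Pcdhac1 held 36.5 tags (25.6 to 50.4) in a peak from 587 bp before its start to 831 bp after it, and Pcdhac2 held 17.5 tags (10.3 to 27.8) at 338 to 1105 bp. Pcdhgc3 held 49.5 tags (36.7 to 65.3) from 516 bp before its start to 1218 bp after it, and its peak was strong at 51.9 normalized tags. Pcdhgc5 held 14.0 tags (7.65 to 23.5) at 26 to 800 bp. Pcdhgc4 had no peak in its first 3 kb, and the nearest lay 1494 bp away. None of these 5 genes was covered at 2000 bp, where 12 of 12 genes of Pcdha1 to Pcdha12, 9 of 12 Pcdhga genes and 6 of 6 Pcdhgb genes were.

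The cluster was among the more heavily marked stretches of its length. Of 2370 windows of 1100 kb on chromosomes 1 to 19 and X, it ranked 17 by peaks (84, against a median of 13.0) and 14 by tags (2894.0, against 330.5). It ranked 5 by strong peaks (16, against 1.0) and 5 by covered length (97645 bp, against 12002 bp). The cluster window was drawn around its genes and is itself 1 of these windows, while other dense stretches may be cut by a window edge. On chromosome 18 it ranked 1 of 81 by each of these. It also holds many genes, since 67 protein-coding spans touch it. The 84 peaks had a median width of 982.5 bp and a median of 28.5 tags, against 769.0 bp and 16.5 tags for the 40035 other peaks. Peaks at the lowest control value of 0.5 tag, whose folds depend on that value, made up 21.4% of the 84 and 43.0% of the others.

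Protocadherin genes outside the cluster have no array of first exons. Of 12 listed, 8 had a peak in the span or within 5 kb (66.7%, against 55.6% of all protein-coding genes) and 2 a strong one, against 6.61%. Pcdh15, a long gene of hair cells, had 15 peaks and the tallest held 61.8 normalized tags. Pcdh9 had 7, the tallest with 150.9 normalized tags at 93214732 to 93216889 on chromosome 14. Pcdh1 and Pcdh11x had 4 each, with the tallest at 37.7 and 48.2. Pcdh1 lies 344 kb beyond the gamma genes on the same chromosome and had 11.1 peaks per 100 kb of span and flanks. Pcdh12, further out on that side, had 0 peaks. Among short genes elsewhere, Pcdh8 had 6.88 peaks per 100 kb, and Pcdh18 and Pcdh20 had 0. The much longer Pcdh15 and Pcdh9 had 0.959 and 0.787. Whether peak density goes with nearness to the cluster was not tested.

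Of the 9 listed genes with a promoter in the RefSeq table of GRCm38.p6, 250 bases before to 50 after a start, 2 had that promoter wholly within a peak. The share of all promoters wholly within a peak was not computed. Among the other protein-coding genes of known strand, a peak covered 7.99% at 250 bp before the start and 13.1% at 50 bp after it. The 2 promoters are printed, chosen after their values were seen, as those of this list that the mark covered. The start of the Pcdh9 promoter lies inside the gene span and not at its outer end. Capitals mark each CG, the dinucleotide that carries DNA methylation and reads the same on both strands. Each holds 18, against a median of 7.0 in 32851 promoters, of which 94.6% hold at least 1. Some promoters of the list that no peak touched hold more, with 26 in Pcdh17, 24 in Pcdh10 and 23 in Pcdh18.
Pcdh9, chr14:93890630-93890929, minus strand, in a peak of 19.5 tags: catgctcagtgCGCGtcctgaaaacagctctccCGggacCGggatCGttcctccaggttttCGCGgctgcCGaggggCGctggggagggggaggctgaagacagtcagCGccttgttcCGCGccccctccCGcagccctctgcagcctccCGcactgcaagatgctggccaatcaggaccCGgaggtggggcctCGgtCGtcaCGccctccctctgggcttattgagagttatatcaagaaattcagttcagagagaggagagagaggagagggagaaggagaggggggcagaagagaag
Pcdh19, chrX:133688944-133689243, minus strand, in a peak of 44.0 tags: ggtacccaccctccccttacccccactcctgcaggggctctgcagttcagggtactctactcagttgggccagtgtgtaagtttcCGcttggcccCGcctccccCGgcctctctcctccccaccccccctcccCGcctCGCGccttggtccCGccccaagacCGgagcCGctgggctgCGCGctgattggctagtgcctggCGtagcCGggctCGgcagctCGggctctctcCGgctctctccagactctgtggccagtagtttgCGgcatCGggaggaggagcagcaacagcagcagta

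Of 19 listed genes for factors that loop, methylate or silence the cluster, 13 had a peak (68.4%, against 55.6% of all protein-coding genes) and 1 a strong one, against 6.61%. These shares are near the background. That was Wapl, which releases cohesin, with 1 peak of 111.6 normalized tags. Wiz, a partner of the methyltransferases G9a and GLP, had 7 peaks with a tallest of 23.6, and Dnmt3a, a DNA methyltransferase, had 5 with a tallest of 27.8. Nipbl, Smchd1 and Dnmt1 had 3 each. Of the marker lists, 8 of 9 intestinal stem cell genes, 6 of 6 neuron genes, 0 of 5 immune genes and 3 of 4 mesenchymal genes had a peak, against 55.6% of all protein-coding genes. These counts do not identify the cells. The stem cell gene without a peak, Olfm4, was named after its values were seen.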

How the data were processed

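One ChIP library and 1 control library from sorted cells of 12 mice were used. Bowtie2 2.2.8 and HOMER 4.10.1, with the builds GRCm38 and mm10, are named in the submitters' processing notes, and for the caller's options the sources used here give nothing. Per the file headers, the list holds, for each peak, a normalized tag count (a signal), ChIP tags scaled to the control, control tags, a fold (a ratio), a p-value (highest 8.32e-05) and a score. The deposited peak scores served as a filter only, and positions and widths are in bp.

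Normalized tag counts under 30 were whole multiples of 0.524, the worth of 0.5 tag, in 100% of cases (tolerance 0.1). Tags were taken from this. Library totals are not given, so depth is known only as 0.684 control tags per ChIP tag. Intervals are exact Poisson at 95%.

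Gene spans came from RefSeq GRCm38.p6 (49595 genes, 21774 protein-coding) without exons. Strand for other genes came from RefSeq promoters. The first-exon window runs 3 kb from the start, to the next start at most. Peaks were placed by centre in stretches and by any overlap in windows. No test across samples was possible. Counting was tested on simulated data.

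Named genes are the ends of each array, the C-type genes, the 4 with most tags per array and those without a peak. In other lists they are the 3 with most peaks or a strong peak. Pcdh8, Pcdh12, Pcdh18 and Pcdh20 were set beside Pcdh1 after their values were seen. Members and lists were chosen with earlier results of these data known. Alternatives were score, fold and control filters, merging, and other windows, flanks and thresholds. Python 3.11.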

Additional observations from a re-analysis of the deposited data

How the results depend on the processing

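Of 99 recomputed values, 77 held and 22 moved. A value with a counting interval held if it stayed within that interval, and any other if it stayed within 1.5 times the reported value. The order gamma, alpha, beta by tags per kb held under the score filter. The control filter, at most 10 control tags, removed none of the 84 peaks, whose highest control value was 9.5. Its values could not move, and they are among the 77 that held. With scores of at least the median, tags per kb were 5.05 in gamma, 2.65 in alpha and 1.58 in beta (5.57% of beta covered), and 3.15 and 5.58 in the alpha and gamma variable arrays. With folds of at least 8, gamma kept 18 peaks, 3.68 tags per kb and 11.9% covered, alpha 3.60 tags per kb and beta 2.06. The gamma variable array then had 4.12 tags per kb and the gamma constant segment 0. The alpha variable array had 4.28, so the order of the variable arrays changed. Gamma and alpha then differed by less than their counting intervals. Merging peaks within 5 kb left 12 in alpha, 15 in beta and 5 in gamma, so gamma went from the most peaks to the fewest. Gaps between peaks had medians of 5334 bp in alpha, 6437 bp in beta and 2362 bp in gamma. With a first-exon window of 1 kb, 1 beta gene had a peak, as beta peaks lie further in. Strong peaks numbered 4 in alpha at the top 5% of the list, and 14 in alpha, 7 in beta and 12 in gamma at the top 20%. The cluster ranked 1 on chromosome 18 alone, 5 by strong peaks and 5 by covered share. No paired analysis was possible because the groups have 1 sample each. Depth limits single genes, and 38 of the 50 marked genes rest on under 60 tags.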

Other observations

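Of the 84 peaks, 25 touched no first-exon window of the 57 genes, and some of these were tall. Inside the alpha array, 3 peaks lay on the pseudogene Gm36858 between Pcdha7 and Pcdha8, the tallest at 36986129 to 36989610 with 104.0 tags (85.0 to 126), which is the third highest normalized tag count of the window. The protocadherin pseudogene Pcdhgb8, in the gamma array, had a peak of 53.0 tags (39.7 to 69.3) at 37762926 to 37764209. The pseudogene Gm6756, before the alpha array, had one of 49.0 tags (36.3 to 64.8). In the beta array a strong peak of 73.0 tags (57.2 to 91.8) lay at 37364020 to 37366456, with no member or pseudogene of the table under it. These peaks were picked out after their values were seen.

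Between beta and gamma, a strong peak of 62.5 tags (48.0 to 80.0) at 37630096 to 37631382 held 6.0 control tags. A peak of 34.0 tags touched Slc25a2, an ornithine carrier gene, and Taf7, a gene of the general transcription machinery beside it, had none. To the right, Diaph1 had no peak in its span, Hdac3 and Rell2 shared 1 of 21.5 tags, and Arap3 had 2. The spans Gm37013, Gm38666 and Gm38667, annotated as protein-coding from the alpha into the gamma genes, were touched by 76, 73 and 72 peaks and are no members.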
